A study of Mus musculus with 6 samples.

Results

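Mouse chromosome 1 was followed through every array of a study of malignant mesothelioma, a cancer that arises from the cell layer around the lungs and other organs. The members are the 16095 non-control probe positions that the denser array design places on chromosome 1 in mm7 coordinates, of 232626 placed positions in all. The sparser design holds 2715 of them, joined by probe name. A stretch of the chromosome, 139 to 158 Mb, had been singled out from these same ratios, so its level is a description and received no test.

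The study's design text speaks of primary mesothelioma cells from 4 Arf (+/-) mice, which carry 1 inactive copy of Arf, and its title of mesotheliomas induced by asbestos. The sample titles name 5 tumours, ARF-110, ARF-104, ARF-129, ARF-112 and ARF-128, which form a single group, and which of them lies outside the 4 mice is not known. The labels call the material primary malignant mesothelioma cells except for ARF-104, where they give no cell type, and the sources used here do not give the share of tumour cells in a sample. Genomic DNA of the tumour carried Cy5 and C57BL/6J reference DNA carried Cy3 on all 6 arrays, with no array of reference against reference, so no background was measured in control samples.

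Array comparative genomic hybridisation reads copy number as the brightness of tumour DNA over reference DNA at each probe. Values are log2 ratios centred on the autosomal median of each array, so 0 is the typical autosomal level, loss of 1 of 2 copies in every cell would give -1 and gain of 1 copy 0.58. Tumour samples that mix altered and unaltered cells give smaller values. Arf, a product of the Cdkn2a locus on another chromosome, restrains Mdm2 and so keeps p53 active. Chromosome 1 carries Mdm4, a second inhibitor of p53 and a cluster of Rgs genes, whose products switch off G protein signals.

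Probe sequences are shown at the edges of the 2 called losses, since these 8 oligonucleotides are where the segmentation placed each edge. They are written as the scanner file gives them, and the sources used here do not give the genomic strand. The edges of the loss in ARF-110 were read by 4 probes of the sparser design.
last probe before the ARF-110 loss, in AK155727, chr1:139052022-139052079: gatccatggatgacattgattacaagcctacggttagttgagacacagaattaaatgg
first probe within the ARF-110 loss, in Crb1, chr1:139195908-139195967: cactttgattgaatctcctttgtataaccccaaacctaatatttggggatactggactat
last probe within the ARF-110 loss, in no named gene, chr1:157579758-157579817: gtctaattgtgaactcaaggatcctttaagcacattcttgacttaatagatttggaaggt
first probe after the ARF-110 loss, in 6430517E21Rik, chr1:158207870-158207929: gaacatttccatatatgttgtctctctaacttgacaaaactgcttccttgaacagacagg
The edges of the loss in ARF-104 fell inside 2 genes and were read by the denser design.
last probe before the ARF-104 loss, in Pou2f1, chr1:165867247-165867300: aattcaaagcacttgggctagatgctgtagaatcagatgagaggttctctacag
first probe within the ARF-104 loss, in Pou2f1, chr1:165872836-165872894: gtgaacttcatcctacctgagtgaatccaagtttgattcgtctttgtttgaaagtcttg
last probe within the ARF-104 loss, in Mgst3, chr1:167353110-167353169: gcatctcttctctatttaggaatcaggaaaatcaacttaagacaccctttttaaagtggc
first probe after the ARF-104 loss, in Mgst3, chr1:167356895-167356953: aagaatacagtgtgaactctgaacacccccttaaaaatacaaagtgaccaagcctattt
Before labelling, DNA was cut with AluI and RsaI, whose sites AGCT and GTAC read the same on both strands. AGCT was found in 5 of the 16095 chromosome 1 probes (0.0311%, against 0.0223% of autosomal probes) and GTAC in 2 (0.0124%, against 0.0136%). None of the 8 sequences above holds either site, so no base is in capitals.

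The arrays differed in precision. The noise of single probes, an SD taken from neighbouring probes, was 0.15 in ARF-110, between 0.36 and 0.49 in ARF-104, ARF-112 and ARF-129, and 0.78 on the denser and 0.43 on the sparser array of ARF-128. The median distance between chromosome 1 probes was 8444 bp on the denser design and 25696 bp on the sparser one. ARF-128 is the tumour number of an array of each design and is represented by the denser one, titled ARF-128PlusMinus, unless stated. The labels do not explain that addition, and whether both arrays hold the same DNA is not known. In the plots the design stands after the tumour's name, with the larger number for the denser one. ARF-104, ARF-112 and ARF-129 share a scan day, ARF-110 shares another with the sparser array of ARF-128, and the denser array of ARF-128 was scanned on another day.

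Chromosome 1 as a whole had a mean slightly below the autosomal median in every tumour. Its mean was -0.088 in ARF-110 and -0.11 in ARF-104, while ARF-129 gave -0.025, ARF-112 gave -0.026 and ARF-128 gave -0.047, and the sparser array of ARF-128 gave -0.11. All 5 tumours were below 0 and none reached the call threshold of -0.25. Counted from the lowest of the 19 autosomal means, chromosome 1 had rank 2 in ARF-104 and 4 in ARF-110. Its rank was 8 in ARF-129, 9 in ARF-112 and 10 in ARF-128, near the middle of the autosomes. The mean over tumours was -0.060 ± 0.039 (SD, n = 5). An exact permutation test that turned the signs of the 5 means (two-sided) gave p = 0.0625, the smallest that 5 tumours allow, and 0.2375 after Benjamini-Hochberg adjustment over 19 autosomes. With normexp background correction the mean was -0.0050, and with only the probes of both designs -0.089.

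**Figure D1:**
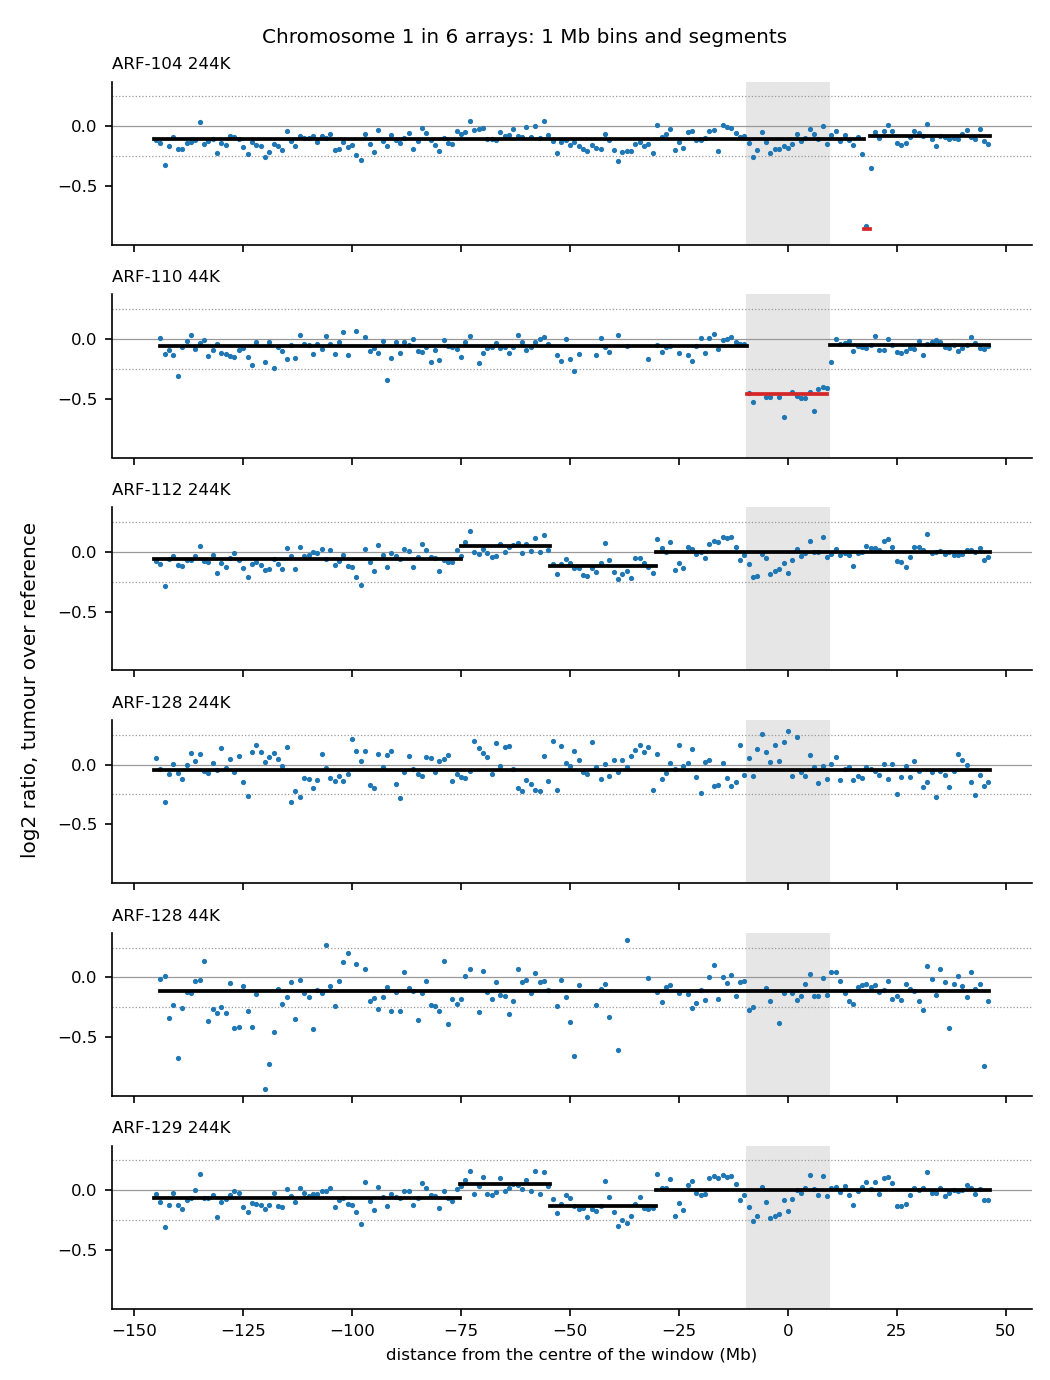
Log2 ratio of tumour over reference in 1 Mb bins of chromosome 1 (points) and fitted segments (lines, red where called lost) for the 6 arrays, against distance in Mb from the centre of the 139 to 158 Mb window (grey). ARF-110 drops to -0.47 across nearly the whole window, ARF-104 has a short drop to -0.86 to the right of it, and the other arrays have no called segment.

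The loss in the 139 to 158 Mb window was found in 1 of the 5 tumours, ARF-110. The window mean was -0.46 in ARF-110 against -0.056 in the rest of its chromosome 1. It was -0.12 in ARF-104 (rest -0.11), -0.048 in ARF-129 (rest -0.023), -0.041 in ARF-112 (rest -0.024) and 0.016 in ARF-128 (rest -0.053). In these 4 tumours the window and the rest of the chromosome lay within 0.069 of each other, whereas the difference in ARF-110 was -0.40. The sparser array of ARF-128, of the same design and scan day as ARF-110, gave -0.12 in the window and -0.11 outside it. Over the 5 tumours the window mean was -0.13 ± 0.19 (SD, n = 5), a value set by ARF-110: without it the mean was -0.048, and the window then stood 0.0056 above the rest of the chromosome.

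Single bins showed the same contrast. The 15 bins of 1 Mb that ARF-110 had in the window ran from -0.66 through a median of -0.48 to -0.40, and the 155 outside it from -0.34 through -0.068 to 0.061, so no bin outside the window was as low as the highest inside. In ARF-104, 166 of 173 bins outside the window were at or below the highest bin inside, and in ARF-112, ARF-128 and ARF-129 the numbers were 168, 173 and 167. That count uses only the upper limit of the window bins, so their ranges are given too. They ran from -0.26 to 0.0016 in ARF-104, -0.21 to 0.12 in ARF-112 and -0.26 to 0.13 in ARF-129. The other bins ran from -0.84 to 0.043, -0.29 to 0.17 and -0.31 to 0.17, so the window bins lay inside that range. In ARF-128 the window bins ran from -0.16 to 0.28 and the others from -0.31 to 0.21, so its highest bin lay in the window.

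**Figure D2:**
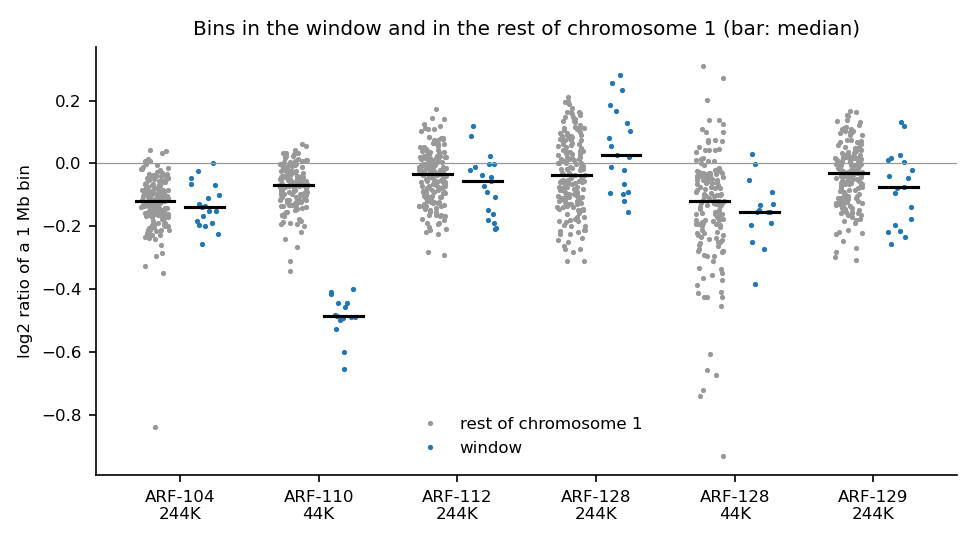
Log2 ratios of single 1 Mb bins inside the 139 to 158 Mb window (blue) and in the rest of chromosome 1 (grey) for each array, with the median as a bar. ARF-110 is the array whose window bins, with a median of -0.48, lie apart from its other bins.

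The lost segment of ARF-110 ran from chr1:139195908 to chr1:157579817, 18.4 Mb, with a mean of -0.47 ± 0.19 (SD over 213 probes), or 72.4% of the reference signal. Of its 213 probes, 210 were below 0 and 191 at or below -0.25 (89.7%), which follows in part from how the segment was found. On the other arrays 27.9% to 34.3% of the probes there were at or below -0.25. The segments on both sides had a mean of -0.056. The left edge lay between the AK155727 probe at -0.022 and the Crb1 probe at -0.37, which are 143828 bp apart, and positions up to 184404 bp apart described it about as well. The right edge lay between an unnamed probe at -0.49 and the 6430517E21Rik probe at -0.16, with no probe of this design in the 628052 bp between them. Both edges were the same with a segmentation penalty of 3 or 10 log n in place of 5 log n, and with base composition subtracted, when the segment mean was -0.45. ARF-110 had 15 of 170 bins of chromosome 1 in lost segments (8.82%), while 3.76% of its autosomal bins were lost. The window was chosen on this contrast, so nothing is read from that difference.

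**Figure D3:**
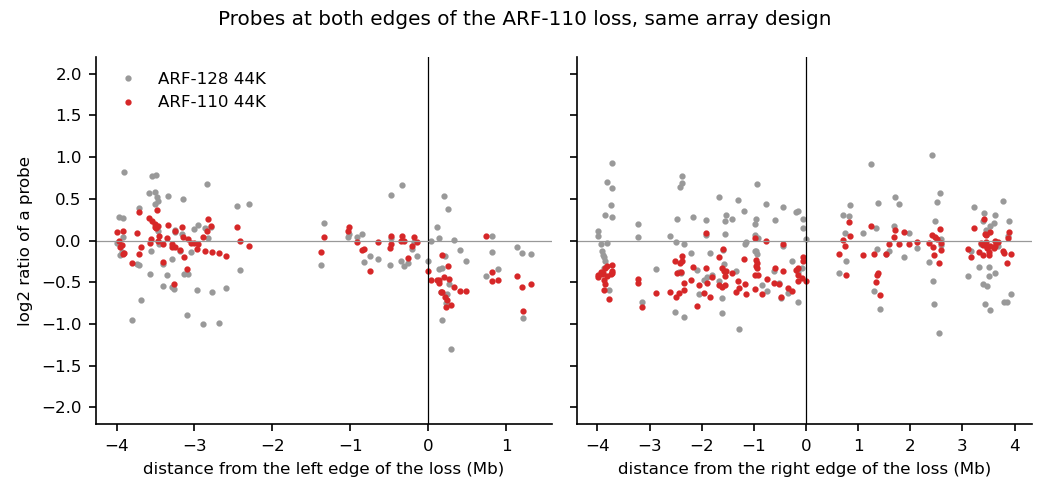
Log2 ratio of single probes within 4 Mb of the left and right edge of the ARF-110 loss, for ARF-110 (red) and for the sparser array of ARF-128 (grey), which has the same design. ARF-110 steps down to a mean of -0.47 at the left edge and back at the right edge, while ARF-128 has no step and more scatter. In ARF-110 the 5 Mb beside the loss had a mean of -0.0068 on the left and -0.070 on the right.

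The lost segment covered 126 named genes, of which ARF-110 read 101. Of these, 98 were at or below -0.25 and 100 below 0, with a median of -0.47. The lowest was 1190005F20Rik (Trmt1l in RefSeq) at -0.87, and the exception above 0 was AK039561 at 0.094, read by 1 probe. 1190005F20Rik was also low without the segment, at -0.34, -0.56 and -0.33 in ARF-104, ARF-112 and ARF-129. In ARF-128 it read -0.072, and -0.59 on the sparser array.

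Of 10 Rgs genes found on chromosome 1, 6 lay on the lost segment, against 126 of all 1615 named genes. In ARF-110, Rgs2 read -0.57, Rgs16 -0.48, Rgs18 -0.47, Rgs8 -0.39, Rgs13 -0.34 and Rgs1 -0.30. The other 4, Rgs20, Rgs4, Rgs5 and Rgs7, lay outside and read between -0.13 and 0.04 in ARF-110. Rgs18, which acts in blood platelets, read -0.08 in ARF-104, 0.02 in ARF-129, -0.06 in ARF-112 and -0.03 in ARF-128, all above its level in ARF-110. Rgs16 was low in the other tumours too, at -0.54, -0.41, -1.33 and -0.45 in ARF-104, ARF-112, ARF-128 and ARF-129, with 2 probes on the denser design.

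Prostaglandin genes lay side by side on the segment. Pla2g4a, which frees arachidonic acid from membranes, read -0.49 in ARF-110 and -0.08, 0.02, -0.08 and 0.01 in ARF-104, ARF-112, ARF-128 and ARF-129. Ptgs2, the inducible cyclooxygenase that acts on that product, read -0.55 in ARF-110 but -0.85, -0.73, -1.02 and -0.81 in the same 4 tumours. Ptgs2 was thus low on every array, and it was read by 1 probe, with 33% of its bases G or C.

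Of 15 tumour suppressor and genome care genes, Cdc73 alone lay on the segment. Cdc73, which encodes parafibromin of the Paf1 transcription complex, read -0.47 in ARF-110 and -0.19, -0.15, 0.0032 and -0.14 in ARF-104, ARF-112, ARF-128 and ARF-129. Abl2, a kinase related to Abl1, read -0.32 in ARF-110 and between -0.13 and 0.01 in the other 4. Lamc1, a laminin chain, read -0.40 in ARF-110 and 0.18, 0.28, 0.26 and 0.35 in ARF-104, ARF-112, ARF-128 and ARF-129, so ARF-110 alone lay below 0. None of the 17 apoptosis, TNF and NF-kB genes lay on a lost segment of any tumour. Of all 1615 named genes, 126 lay on the ARF-110 loss and 21 on the loss called in ARF-104. With so small a share, few members of a short list would lie there, so nothing is read from these counts.

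A second loss, much shorter and deeper, was called in ARF-104. It ran from chr1:165872836 to chr1:167353169, 1480334 bp, with a mean of -0.86 ± 0.38 (SD over 154 probes), or 55.1% of the reference signal, between segments of -0.11 and -0.083. Of its probes, 152 were below 0 and 148 at or below -0.25 (96.1%), against 14.3% to 40.3% at or below -0.25 on the other arrays. The counts in ARF-104 follow in part from how the segment was found. Over the same stretch the mean was -0.055 in ARF-110, -0.0080 in ARF-129, 0.0041 in ARF-112, and -0.10 on the denser and -0.013 on the sparser array of ARF-128, so the loss was found in ARF-104 alone. With normexp background correction its level was -0.32. ARF-104 had 1 of 170 chromosome 1 bins in lost segments (0.588%), against 1.19% of its autosomal bins, and 0 bins of chromosome 1 were in gained segments in any tumour, against 13.5% of autosomal bin and tumour pairs. Lost pairs made up 1.88% on chromosome 1 and 9.69% over the autosomes.

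Both edges of the ARF-104 loss lay within genes. The left edge fell inside Pou2f1, which encodes the Oct-1 transcription factor, within the 5535 bp between a probe at 0.29 and one at -2.04. On that second probe ARF-112, ARF-128 and ARF-129 also read low, at -0.93, -0.96 and -0.84. The right edge fell inside Mgst3, a microsomal glutathione transferase, within 15166 bp. The first Mgst3 probe after it read -0.31 in ARF-104, against 0.34 and 0.31 in ARF-112 and ARF-129, so it was itself low. When ARF-104 was set against the mean of ARF-112 and ARF-129, which share its scan day and design, the noise of a probe fell from 0.36 to 0.17, the left edge stayed between the same 2 probes and the right edge moved to the 4838 bp after chr1:167363497, which puts that probe inside the loss. In 151 of 154 probes ARF-104 was below both of these arrays, which follows in part from how the loss was found.

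All 21 named genes on the stretch were at or below -0.25 in ARF-104, from -1.32 in Mael to -0.29 in AK138194. Mael, which acts in silencing transposons in the germ line, read -0.06, -0.16, -0.32 and -0.03 in ARF-110, ARF-129, ARF-112 and ARF-128. Gpa33, a surface antigen of the gut epithelium, read -1.08 in ARF-104 and between -0.26 and -0.16 in the others. Tmco1, a channel of the endoplasmic reticulum, read -1.04 in ARF-104 but also -0.65 in ARF-128 and -0.66 in ARF-129. Uck2, a uridine and cytidine kinase, read -0.87, and Tada1l (Tada1), a subunit of the SAGA complex, -0.69. Aldh9a1, an aldehyde dehydrogenase, read -0.46 in ARF-104 and 0.13, -0.09 and 0.12 in ARF-112, ARF-128 and ARF-129.

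Another low stretch of ARF-104 was too short to be segmented from its own ratios at the penalty used, and was chosen after its values had been seen. In the difference from ARF-112 and ARF-129 it ran from chr1:132186499 to chr1:132365932, 0.179 Mb, with a difference of -0.95 ± 0.24 (SD over 26 probes). ARF-104 was below both arrays at 26 of 26 probes, which follows in part from how the stretch was found. The ratio itself was -0.62 in ARF-104, whereas ARF-112 read 0.32 and ARF-129 read 0.33. ARF-110 read -0.070, and the arrays of ARF-128 read -0.052 on the denser and -0.077 on the sparser design. A part of the difference therefore comes from the 2 comparison arrays, which stood above 0 there. With a penalty of 3 log n the stretch was also segmented from the ratios of ARF-104 alone, over 31 probes at -0.63. With normexp background correction its level was -0.22.

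The short stretch holds 6 named genes. Ripk5 (Dstyk), a dual-specificity kinase, read -0.89 in ARF-104 and 0.04, -0.01, 0.04 and 0.06 in ARF-110, ARF-129, ARF-112 and ARF-128. Klhdc8a, with 2 probes, read -0.83 in ARF-104, but also -0.44 in ARF-110. Nuak2, a kinase of the AMPK family, read -0.35 in ARF-104 and -0.22 in ARF-128, against 0.06, 0.71 and 0.59 in ARF-110, ARF-129 and ARF-112. Tmcc2 read -0.37 in ARF-104 and -0.30 in ARF-110, against 0.48 and 0.25 in ARF-112 and ARF-129. Mdm4, which lies outside the stretch, read -0.12, -0.19, -0.21, -0.23 and -0.51 in ARF-110, ARF-104, ARF-129, ARF-112 and ARF-128.

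**Figure D4:**
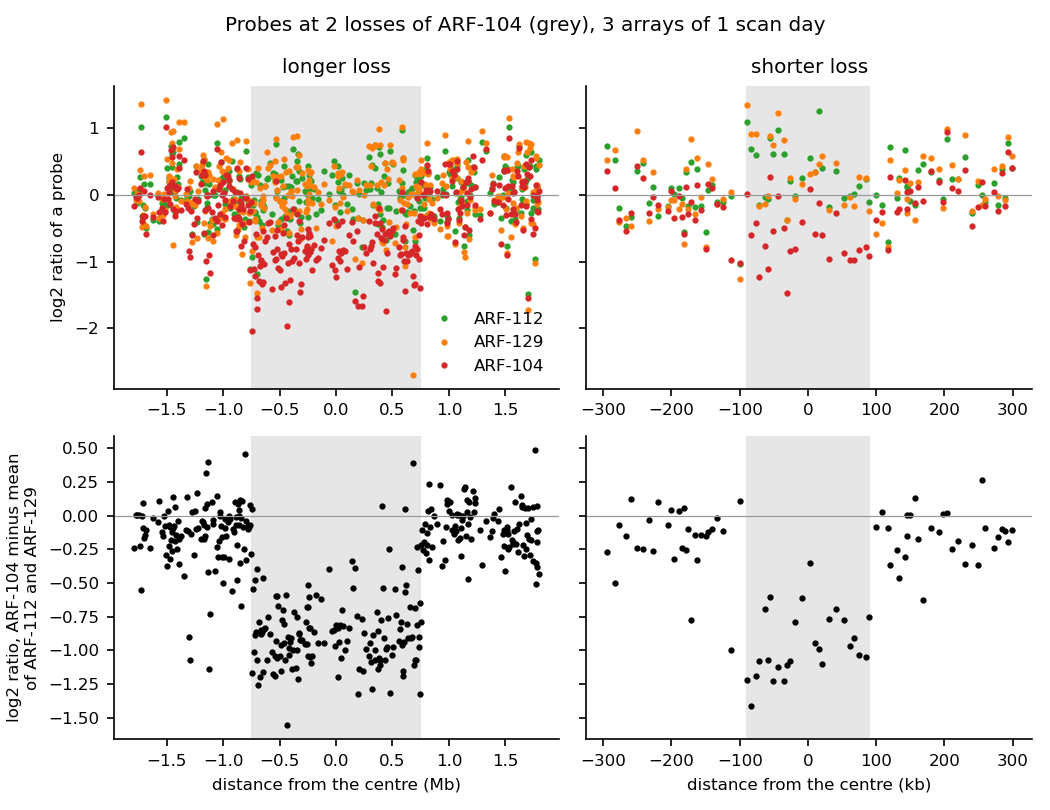
Log2 ratios of single probes around the longer and the shorter loss of ARF-104 (grey), against distance from the centre of each, for the 3 arrays of 1 scan day (top) and as ARF-104 minus the mean of the other two (bottom). The difference drops to means of -0.86 and -0.95 inside the stretches and returns close to 0 on both sides.

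ARF-112 and ARF-129 had no called segment on chromosome 1, but each was segmented at 3 small steps. In ARF-112 the level went from -0.062 to 0.047 at 73462314, to -0.12 at 93846724 and to -0.00041 at 118204546. In ARF-129 it went from -0.062 to 0.055, to -0.13 and to 0.00058, at positions 211652, 11827 and 0 bp away. Every level was inside the call threshold of 0.25. ARF-104, scanned on the same day, read -0.13, -0.050, -0.17 and -0.11 over the same 4 intervals, and ARF-128 -0.049, -0.050, 0.0068 and -0.055. The sparser array of ARF-128, of another scan day and design, read -0.17, -0.047, -0.18 and -0.086, so it rose and fell over the intervals in the same order as ARF-112 and ARF-129. ARF-110 read -0.075, -0.034, -0.079 and -0.12, with its loss in the last interval. With a penalty of 3 log n ARF-104 also had change points close by, at 71929725, 93858551 and 118390606. With a penalty of 10 log n ARF-112 and ARF-129 had 0 change points, so the steps depended on the penalty. The third interval had 53.3 probes per Mb, against 80.8, 97.1 and 92.9 in the others, and 43.6% of its probes carried a gene name, against 66.3%, 69.9% and 68.4%. With base composition subtracted ARF-129 had no change point and ARF-112 had 1, at 36177106. The levels over the 4 intervals nevertheless kept most of their size, at -0.050, 0.035, -0.099 and 2.8e-05 in ARF-112 and -0.046, 0.046, -0.11 and 0.0027 in ARF-129. The part of gene density or scan day in these steps was not tested.

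Over bins of chromosome 1 the ratios of ARF-112 and ARF-129 correlated at r = 0.96 (192 bins), as a description of arrays that share a scan day, a design and a reference. Without the bins lost in ARF-104 or ARF-110, ARF-104 correlated with ARF-112 at 0.91 and with ARF-129 at 0.92 (174 bins). The 2 arrays labelled ARF-128, which share a tumour number but neither design nor scan day, correlated at -0.045 over 170 bins and at 0.36 over 2714 single probes. The probes of the denser one correlated at 0.66 with those of ARF-104 on the same design. Those of the sparser one correlated at 0.61, 0.65 and 0.71 with ARF-104, ARF-112 and ARF-129, across design and scan day. These correlations are descriptions, and the differences between them were not tested. The probe ratio also followed the share of G and C in the probe, with r between 0.18 and 0.22 on 5 arrays and 0.083 on the denser array of ARF-128.

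**Figure D5:**
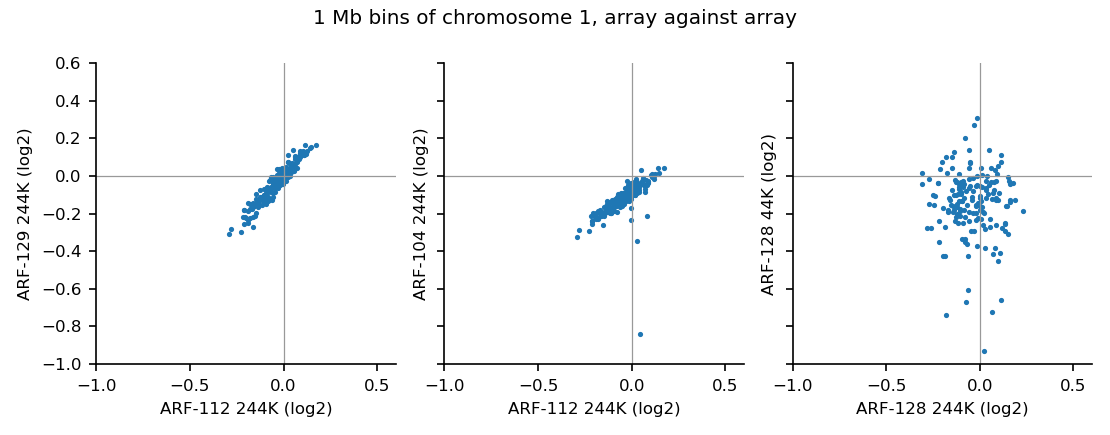
Log2 ratios of 1 Mb bins of chromosome 1 on one array against another. ARF-112 and ARF-129 lie close to a line (r = 0.96), ARF-104 follows ARF-112 apart from its lost bins, and the arrays of ARF-128 show no common pattern (r = -0.045).

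Tested over the 5 tumours with limma, 1 of 170 chromosome 1 bins was lower than the reference and 0 were higher, against 0.642% and 3.9% of all autosomal bins. Without adjustment, 25 were lower and 0 higher at p under 0.05, against 306 and 215 of 2179 autosomal bins. The bin that passed, chr1:5000001-6000000, read -0.12, -0.33, -0.31, -0.29 and -0.31 in ARF-110, ARF-104, ARF-129, ARF-112 and ARF-128, with a limma adjusted p of 0.033. On the sparser array of ARF-128 its ratio was 0.01. It holds Rgs20, Atp6v1h, a subunit of the proton pump of acidic organelles, and Oprk1, the kappa opioid receptor. With ARF-110 or any other tumour left out, 0 bins passed, and 5 to 22 were lower at an unadjusted p under 0.05. Over all autosomal bins 188 to 276 were lower in that way.

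Of 1304 chromosome 1 genes tested the same way, 109 were lower (8.36%) and 41 higher (3.14%; limma, adjusted p under 0.05), against 6.7% and 8.08% of autosomal genes. With scan day as a random block 0 genes were lower and 0 higher (196 and 80 at an unadjusted p under 0.05), and the limma counts were 0 and 0 without ARF-104 (unadjusted 174 and 88), without ARF-112 (225 and 81) and without ARF-129 (220 and 78). Over the autosomes 3 and 3 genes passed with the block (unadjusted 2226 and 2279 of 20070), and 0 without each of these tumours. The unadjusted autosomal counts were then 2497 and 2609 of 20075, 2801 and 2783 of 20071, and 2378 and 2535 of 20072. Without ARF-110 the chromosome 1 counts were 195 and 115 of 1614 (12.1% and 7.13%), against 10.6% and 11.3% of autosomal genes. When each gene took the mean of its segments they were 0 and 0 (unadjusted 44 and 0), against 0 and 678 over the autosomes (1466 and 1966). Of the 109 genes, 59 were read by 1 probe on the sparser design and 13 lay on a lost segment. For comparison, ARF-110 read 101 genes on its own lost segment, beside the 1304 tested on the chromosome. The share of all tested genes with 1 such probe is not given here, so nothing is read from either count. Probes of the lower genes held 35.5% G and C, those of the higher genes 39.4% and those of all tested genes 36.6%.

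The gene lists gave the following counts, to be read beside the 8.36% of chromosome 1 genes called lower. Unadjusted counts are to be read beside 281 lower and 123 higher of all 1304. The median was -0.061 over chromosome 1 genes and -0.010 over autosomal genes. Of 17 apoptosis, TNF and NF-kB genes 0 passed limma in either direction (unadjusted, 4 were lower and 0 higher), with a median of -0.049. Casp8, the initiator caspase of death receptors, read -0.21, -0.20, -0.20, -0.09 and -0.31 in ARF-110, ARF-104, ARF-129, ARF-112 and ARF-128, below 0 in every tumour, with an adjusted p of 0.12 by limma. Bcl2, which blocks apoptosis, had a mean of -0.0059. Of 14 tumour suppressor and genome care genes tested 0 passed (4 and 0 unadjusted), with a median of -0.15. Of 17 growth genes, 2 were lower, Ptgs2 and Mybl1 (4 and 0 unadjusted), with a median of -0.11. Of 12 strain-variable immune genes, 2 were lower, among them Ifi203, an interferon-induced gene (3 and 1 unadjusted), with a median of -0.079. Of 10 Rgs genes, 2 were lower, Rgs16 and Rgs8 (3 and 0 unadjusted), with a median of -0.12, though Rgs8 read above 0 on the probes of both designs alone. Ptgs2, Rgs16 and Rgs8 lie on the segment lost in ARF-110, in the window chosen from these ratios, so their calls are a description and support nothing. Of 11 matrix and adhesion genes 0 passed (1 and 1 unadjusted), with a median of -9.4e-05. With scan day as a block 0 genes of any list passed, and the smallest limma adjusted p was 0.060, for Ptgs2.

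Among genes with at least 3 probes, the lowest outside the window were Rnf149, a ubiquitin ligase, at -0.86 ± 0.46 (SD, n = 5) and Scyl3 at -0.79 ± 0.44. Rnf149 read -0.16, -0.82, -1.03, -0.85 and -1.44 in ARF-110, ARF-104, ARF-129, ARF-112 and ARF-128. The sparser array of ARF-128 read -0.19, so both arrays of the sparser design lay above the 4 of the denser one. Ppp1r7, a regulator of protein phosphatase 1, had a mean of -0.60, Mybl1, a germ cell relative of Myb, -0.59, and Rpe, an enzyme of the pentose phosphate pathway, -0.58. The 3 probes of Rpe held 21.7% G and C, and with base composition subtracted its mean was -0.092. The highest were Lad1, an anchoring filament protein, at 0.54 ± 0.30 and Kcne4, a potassium channel subunit, at 0.45 ± 0.32. Pdcd1, the checkpoint receptor PD-1, had a mean of 0.41 and read 0.06 in ARF-110 and -0.0062 on the sparser array of ARF-128. In the window the lowest of 73 such genes were AK129406 at -0.60 and Aspm, a spindle protein, at -0.48. AK129406 read -1.49 in ARF-128 but 0.19 on its sparser array, and -0.31, -0.44, -0.29 and -0.47 in ARF-110, ARF-104, ARF-129 and ARF-112, so its place as the lowest rests on the denser ARF-128 array. Aspm read -0.47, -0.42, -0.53, -0.50 and -0.50 in ARF-110, ARF-104, ARF-129, ARF-112 and ARF-128 (SD 0.039, n = 5), although only ARF-110 carried the segment. The highest in the window were Tor3a at 0.34 and Rnf2, a Polycomb ubiquitin ligase, at 0.33. Rnf2 read -0.35 in ARF-110 and 0.30, 0.36, 1.01 and 0.34 in ARF-104, ARF-112, ARF-128 and ARF-129, so ARF-110 alone lay below 0.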

How the data were processed

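Tumour DNA and C57BL/6J reference DNA were hybridised to 6 Agilent 2-colour arrays. The authors' deposited files give a processed red and green intensity per spot, made with Agilent Feature Extraction 8.5.1.1, 9.1.3.1 or 9.5.3.1, per the file headers. The deposited value table holds the same ratios as log10 (sparser design) or log2 (denser design) values, not centred. Coordinates are mm7 per the file header of the denser ARF-128 array, and the sources used here do not name one for the sparser design.

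The log2 ratio of red over green intensity was taken, control and outlier spots were left out, repeated probes averaged, and each array centred on its autosomal median. Segments were fitted by PELT, with a minimum of 5 probes and a penalty of 5 log n, and called at 0.25 in either direction. The interval of an edge holds the positions whose fit was within the 95% chi-square limit. Bins of 1 Mb and genes were tested with limma 3.58.1 and Benjamini-Hochberg adjustment over all autosomes. No spread of the reference enters these tests, and nothing in the labels says more of how the tumours were replicated than their numbers. Segmentation and limma were tested on simulated data.

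Members and lists were chosen with earlier results of these data known. Genes are named where they belong to a list, hold or neighbour a called edge, or, with at least 3 probes, have the lowest 8 or highest 5 means in the window or the lowest and highest 8 outside it. Other genes inside the losses were chosen after their values were seen. Of 1615 gene names on chromosome 1, 909 were matched to RefSeq (GRCm38.p6, names only) by accession, 18 by symbol and 20 by synonym, and 668 are as in the files. Other tools were matplotlib 3.10.9, numba 0.67.0, scipy 1.17.1, numpy 2.4.6, Python 3.11.15 and R 4.3.3. Alternatives were another ARF-128 array, background, centring, signal column, probe filter, threshold, penalty, bin size, scan day as a block and each tumour left out. Base composition, the window against its chromosome and same-day differences were added after seeing the data. Results for some genes are not reported here.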

Additional observations from a re-analysis of the deposited data

Results flagged for a closer look

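In groups of 5, a tumour was marked when its gap to the nearest other tumour was over 0.71 of the whole range (Dixon's test), which chance does in about 1 of 20 groups. ARF-110 was the tumour apart in the mean of the 139 to 158 Mb window (-0.46), in the window minus the rest of the chromosome (-0.40), in the share of chromosome 1 bins lost (8.82%) and in the mean over its own lost segment (-0.47). ARF-104 was apart in the mean over its longer loss (-0.86). These stretches were found from the same ratios, so the marks describe them and add no support.

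Of 115 named genes with values in all 5 tumours, 18 had a tumour apart. ARF-128, the noisiest array, was that tumour for 12 of them, each time as the lowest value: Cxcr4 (-2.39, 1 probe), AK129406 (-1.49), Rgs16 (-1.33), 6430706D22Rik (-1.26), Fbxo28 (-1.05), Fcgr2b (-0.97), Slamf1 (-0.97), Olfr421 (-0.88), Ikbke (-0.66), Mdm4 (-0.51), Tnfsf18 (-0.33) and Cd48 (-0.17). ARF-110 was the lowest for Pla2g4a (-0.49), Rgs18 (-0.47), Lamc1 (-0.40) and Tor3a (-0.28), which lie on its lost segment. ARF-104 was the lowest for Ripk5 (-0.89) and Mgst3 (-0.58), which lie in its losses. Those losses were found from the same ratios, so the marks of ARF-110 and ARF-104 on these genes add no support. The sparser array of ARF-128 read -0.35 for Cxcr4 and 0.19 for AK129406.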

How the results depend on the processing

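The lost segment in the window was called in 1 tumour under every alternative run except without ARF-110 (0). The chromosome 1 mean stayed below 0 under the alternatives run, from -0.089 to -0.0050. The level of the ARF-110 loss ranged from -0.48 to -0.38, that of the longer ARF-104 loss from -0.86 to -0.32 and that of its shorter loss from -0.74 to -0.22, with the smallest sizes under normexp background correction. Change points on chromosome 1 over 5 tumours numbered 10, against 21 with a penalty of 3 log n, 4 with 10 log n and 5 with base composition subtracted. The count of lower bins was 1 of 170 (0.588%, against 0.642% of autosomal bins). With the probes of both designs it was 22 (12.9% against 6.84%), and when the sparser array stood for ARF-128 it was 5 (2.94% against 3.76%). It was 4 when the arrays of ARF-128 were averaged (2.35% against 2.07%) and 4 with scan days as blocks (2.35% against 2.89%). The correlation fitted within a scan day was -0.13 for bins and 0.42 for genes. A correlation below 0 makes the blocked test less strict, so nothing is read from the rise to 4. With 2 Mb bins, with normexp and with each tumour left out it was 0, against 0.342%, 0.138% and at most 0.597% of autosomal bins.

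The counts of lower and higher genes were 109 and 41 (8.36% and 3.14%, against 6.7% and 8.08% of autosomal genes). With the probes of both designs they were 195 and 71 (15.0% and 5.45%, against 11.8% and 11.6%). When the sparser array stood for ARF-128 they were 164 and 93 (12.6% and 7.14%, against 11.2% and 14.8%). When its arrays were averaged they were 202 and 88 (15.5% and 6.75%, against 12.6% and 14.5%). They were 0 and 0 with scan days as blocks (against 0.0149% and 0.0149%) or with segment means (against 0% and 3.38%). With normexp they were 34 and 55 (2.61% and 4.22%, against 2.36% and 8.69%), so more genes were higher than lower. With a tumour left out lower genes ran from 0 to 195 and higher genes from 0 to 115. The counts were 195 and 115 without ARF-110, and 0 when ARF-129, ARF-112 or ARF-104 was left out. Without ARF-110 more genes could be tested. Of 24 named genes that passed, 24 missed the threshold with scan day as a block. On segment means AK087451 (-0.043), Lad1 (-0.043), Sft2d2 (-0.043), Kcne4 (-0.022) and Pdcd1 (-0.022) changed sign, and on the probes of both designs Rgs8 did (0.15). The cause of the other changes was not tested. No paired analysis was possible because all 5 tumours form 1 group. The number of arrays, the noise of ARF-128 and the spacing of the sparser design limit which short losses could be seen.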
